A study of Mus musculus with 12 samples.

Results

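The genes described here are 8 regulators of histone H3 lysine 4 (H3K4) methylation, chosen by name from the 18911 genes of the count table: the lysine demethylases Kdm1a, Kdm1b, Kdm5a, Kdm5b and Kdm5c and the CoREST genes Rcor1, Rcor2 and Rcor3. All 8 were found by matching Ensembl identifiers to GRCm38 symbols, and all 8 passed the filter on low counts that left 17076 genes to test.

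Poly(A)-selected RNA was sequenced from mouse neural progenitor cells (mNPCs) in 4 genotypes with 3 libraries each. Kmt2a+/+ libraries are wild-type. Kmt2a+/LSL cells carry 1 Kmt2a allele with a lox-STOP-lox (LSL) cassette in intron 1, which ends the transcript early. The remaining genotypes, Nes-Cre+/- Kmt2a+/+ without the cassette and Nes-Cre+/- Kmt2a+/LSL with it, also carry nestin-Cre, a recombinase that the nestin promoter turns on in neural cells and that excises the cassette there. The allele was made in C57BL/6J zygotes, and the cells came from the hippocampus of newborn (P0) pups and were expanded with growth factors. Nestin-Cre acts across the nervous system and from before birth, so the cassette can be gone before the cells enter culture. Sample titles call Kmt2a+/LSL a knockout, although 1 normal allele remains. The LSL comparison sets Kmt2a+/LSL against Kmt2a+/+ and asks whether the blocked allele changes these genes. The excision comparison sets Nes-Cre+/- Kmt2a+/LSL against Kmt2a+/LSL and asks whether removing the cassette changes them back. The Cre-only comparison (Nes-Cre+/- Kmt2a+/+ against Kmt2a+/+) and the LSL comparison under Cre, in which both genotypes carry nestin-Cre, ask what differs with Cre alone and what difference is left after excision. The interaction is the difference between the LSL comparisons under Cre and without it. The labels do not say which animals or cultures the replicates came from, so a p-value measures the spread between these libraries. The study calls its replicates biological, and 3 of the 4 genotypes hold libraries both with and without Y-linked counts, which cannot all be from 1 pup. In bulk RNA, fewer cells of a type and less RNA per cell cannot be told apart.

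KMT2A writes methyl groups on H3K4, and the 5 demethylases take them off. KDM1A (LSD1) and KDM1B (LSD2) are flavin-dependent oxidases that remove the mono- and dimethyl marks of enhancers and promoters, while the KDM5 enzymes are iron- and oxoglutarate-dependent and act on the di- and trimethyl marks. The CoREST proteins RCOR1, RCOR2 and RCOR3 hold KDM1A on the nucleosome next to the deacetylases HDAC1 and HDAC2, and the complex is known in neural progenitors for keeping neuronal genes off together with the repressor REST. KDM5C is encoded on the X chromosome, is known to escape X inactivation and is mutated in a form of X-linked intellectual disability, and KDM5D is its relative on the Y chromosome.

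Kdm5c and Kdm5d are close enough in sequence that reads could in principle be credited to the wrong one, so their longest shared stretch is shown first. Their coding sequences were identical at 77.7% of aligned bases, against 64.1% to 66.0% for the other pairs within the KDM5 family. The longest run of identical coding bases was 35, and the transcripts of the 2 genes shared 5 words of 31 bases, the word length that kallisto matches by default. The run lies across exons 9 and 10 in both genes, at chrX:152248491-152248699 for Kdm5c and chrY:916704-916883 for Kdm5d (GRCm38, plus strand), and is printed with 30 bases on each side, joined across the intron. Capitals mark the 11 positions at which the 95 bases differ.
Kdm5c: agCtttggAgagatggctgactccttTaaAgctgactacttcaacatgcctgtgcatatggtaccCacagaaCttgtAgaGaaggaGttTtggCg
Kdm5d: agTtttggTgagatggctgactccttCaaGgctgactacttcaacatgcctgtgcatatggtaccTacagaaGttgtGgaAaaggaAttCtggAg
Outside that stretch the mismatches are frequent enough that words of 31 bases tell the 2 genes apart.

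Promoter sequences from RefSeq (GRCm38.p6), 250 bases before to 50 bases after the start of each gene, were matched for 7 of the 8 members and for Kdm5d. Kdm5a was not matched. The 2 members whose libraries fell apart most cleanly, Rcor3 by genotype and Kdm5c by the presence of Y-linked RNA, sit at opposite ends of the family in CG content, and their promoters are shown with each CG dinucleotide in capitals. The Rcor3 promoter is at chr1:192137991-192138290 on the minus strand, and the Kdm5c promoter at chrX:152232977-152233276 on the plus strand.
Rcor3: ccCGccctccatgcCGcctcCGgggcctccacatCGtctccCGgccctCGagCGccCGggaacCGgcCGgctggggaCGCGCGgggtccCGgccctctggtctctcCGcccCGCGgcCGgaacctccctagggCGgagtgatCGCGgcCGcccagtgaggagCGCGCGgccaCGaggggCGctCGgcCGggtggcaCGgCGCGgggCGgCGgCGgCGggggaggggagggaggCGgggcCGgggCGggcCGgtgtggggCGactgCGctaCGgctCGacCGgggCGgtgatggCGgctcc
Kdm5c: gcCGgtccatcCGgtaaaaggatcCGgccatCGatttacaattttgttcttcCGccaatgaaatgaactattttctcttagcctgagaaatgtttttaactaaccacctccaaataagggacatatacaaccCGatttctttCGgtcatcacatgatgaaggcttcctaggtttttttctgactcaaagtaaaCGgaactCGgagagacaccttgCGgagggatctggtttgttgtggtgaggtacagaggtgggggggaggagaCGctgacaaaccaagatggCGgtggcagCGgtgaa
The Rcor3 window held 47 CG dinucleotides, and 98.6% of the 32851 promoters in the table held fewer. The Kdm5c window held 13, with 62.1% of promoters holding fewer. The other matched members held 17 (Kdm5b) to 31 (Rcor1), against a median of 7 over all promoters. The letters GGGCGG, searched on both strands, were in the promoters of Kdm1b, Kdm5b, Rcor1, Rcor2 and Rcor3 and in 35.7% of all promoters. The letters CCAAT were in those of Kdm1a, Kdm5c and Rcor1 and in 37.4% of all, and the letters TATAAA were in that of Kdm5d, in none of the 7 members and in 13.6% of all. CCGGAAG (8.86% of all promoters), TGACGTCA (1.79%) and the NRF1 motif (0.971%) were in none of the members' windows. A match describes letters in the window and is not a bound site.

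Library totals ranged from 18280008 to 28596919 estimated counts. Kmt2a, the targeted gene, follows its labels: 6916, 7194 and 6720 normalized counts in the wild-type Kmt2a+/+ libraries and 3972, 3979 and 3991 in those of Kmt2a+/LSL. With nestin-Cre the libraries held 6777, 7427 and 7167 on the Kmt2a+/+ and 6535, 6814 and 6205 on the Kmt2a+/LSL background. A normalized count is an estimated count scaled to a common library size with edgeR's TMM factors. The Kmt2a+/LSL libraries stood below all others, by 0.80 on the log2 scale against Kmt2a+/+ (SE 0.13, edgeR quasi-likelihood test, adjusted p = 0.281, and 0.0437 without Kmt2a+/+ replicate 1). Progenitor markers fit the label mNPC, with a summed level of 7342 to 14336 CPM (counts scaled to a common library size) over 8 genes. The 6 neuronal, 4 astrocyte and 5 oligodendrocyte-lineage markers summed to 1034 to 1760, 304 to 1475 and 433 to 1212 CPM, over lists of unequal length. Mean levels above 1 CPM were found for all 8 progenitor markers, but also for 5 of the neuronal, 4 of the astrocyte and 5 of the oligodendrocyte-lineage markers. Of 5 microglial and 4 vascular or fibroblast markers, 4 and 3 were found in the table, with sums of at most 1.59 and 3.02 CPM. The library labelled Kmt2a+/+ replicate 1 stood apart: it held the lowest or the highest normalized count of all 12 libraries for 64.1% of the genes tested and for 5 of the 8 members. Its mitochondrial genes took 12.7% of counts, against 3.96% to 10.3% in the other libraries. In this library the 1149 genes with the highest transcript GC content (58.2% or more) lay 2.00 below their median over all libraries on the log2 scale. Nes-Cre+/- Kmt2a+/LSL replicate 1 was next on both measures, with 10.3% mitochondrial counts and a median deviation of −0.48 for the same genes.

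Levels between genes are compared per length, as CPM per kilobase of the longest protein-coding transcript. Kdm1a was the most abundant member in every genotype, at 62.1 ± 2.79 (SD, n = 12 libraries). Kdm5c followed at 35.3 ± 10.1, Rcor2 at 26.0 ± 8.72 and Kdm5b at 19.9 ± 2.54. Kdm5a (10.5 ± 0.971), Rcor1 (9.86 ± 1.35) and Kdm1b (7.30 ± 1.19) formed a lower tier, and Rcor3 was last at 1.46 ± 0.368. Kdm1a lay above every other member in all 12 libraries (57.5 to 66.6, with the highest Kdm5c library at 51.4), and Rcor3 lay below every other one (0.761 to 2.17). Neighbours in between overlapped over the 12 libraries: Kdm5c with Rcor2, Rcor2 with Kdm5b, Kdm5a with Rcor1, and Rcor1 with Kdm1b. Kdm5b (14.9 to 24.2) and Kdm5a (8.38 to 12.5) did not. Counted over the union of all exons, which is a longer length for 7 of the genes, Rcor1 passes Kdm5a, and the levels of Kdm1a, Kdm5b, Kdm5a and Rcor3 come down to 36.3, 10.5, 8.13 and 0.406.

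**Figure D1:**
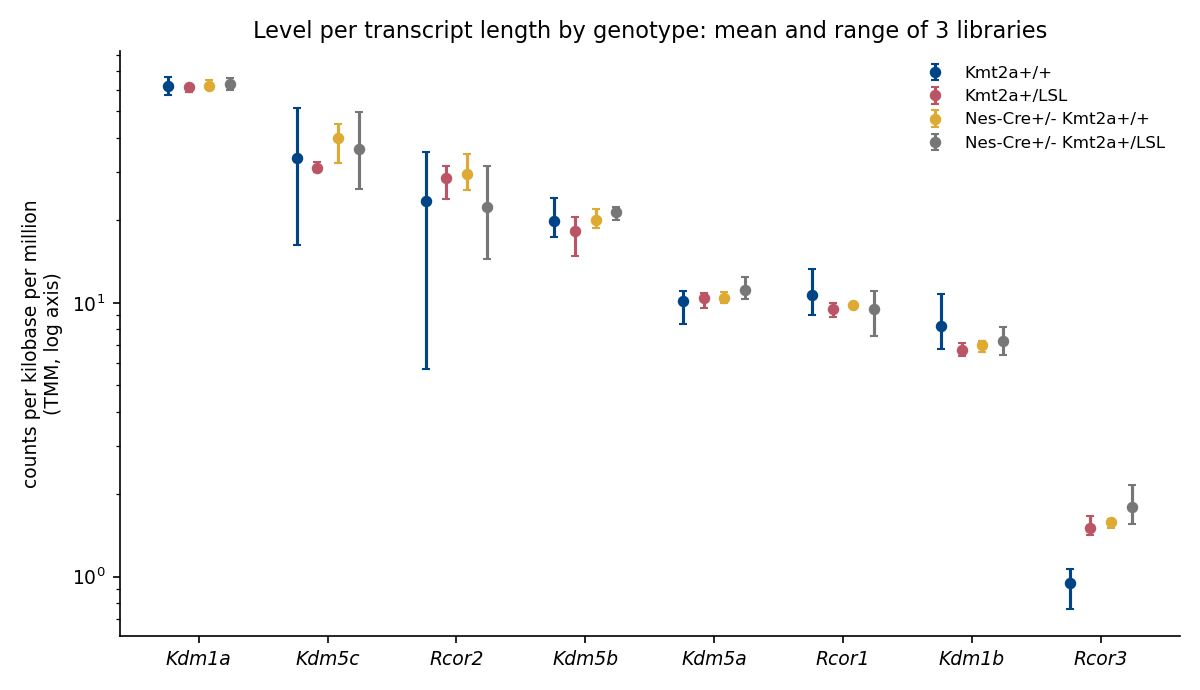
Level per transcript length of the 8 members, on a log axis in CPM per kilobase, for the 4 genotypes. Points are means and bars the range of 3 libraries. Kdm1a is highest and Rcor3 lowest in each genotype, and the bars of Kdm5c and Rcor2 are the longest in Kmt2a+/+.

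No member passed the test in any comparison. At an adjusted p under 0.05 in edgeR's quasi-likelihood test, 0 of the 8 were called in the LSL comparison, beside 0% of all genes tested. The same 0 of 8 and 0% held for the excision comparison, the Cre-only comparison, the LSL comparison under Cre and the interaction. At an unadjusted p under 0.05, edgeR counted 306, 275, 239, 190 and 295 of the 17076 genes in these comparisons, in that order. Without Kmt2a+/+ replicate 1 these counts were 1521, 661, 1035, 548 and 562 of 16987, and edgeR called 2, 1, 0, 0 and 0 genes, again with no member. Among the members, Rcor3 was below it in the LSL and Cre-only comparisons. DESeq2's Wald test called 7 (0.0411%), 7 (0.0411%), 3 (0.0176%), 3 (0.0176%) and 10 (0.0587%) of 17041 genes, and none of these was a member. The Wald test without Kmt2a+/+ replicate 1 called 21, 7, 5, 5 and 7 genes, so 3 times as many in the LSL comparison, and again no member. limma-voom called 2, 2, 0, 0 and 0 of 17076 genes, again with no member. After the z-scores were rescaled to an empirical null, DESeq2 called 26, 935, 3, 241 and 15 genes and still no member. The lowest adjusted p of any member over all tools and alternatives run was 0.0970, for Kdm5b in the excision comparison with the empirical null.

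**Figure D2:**
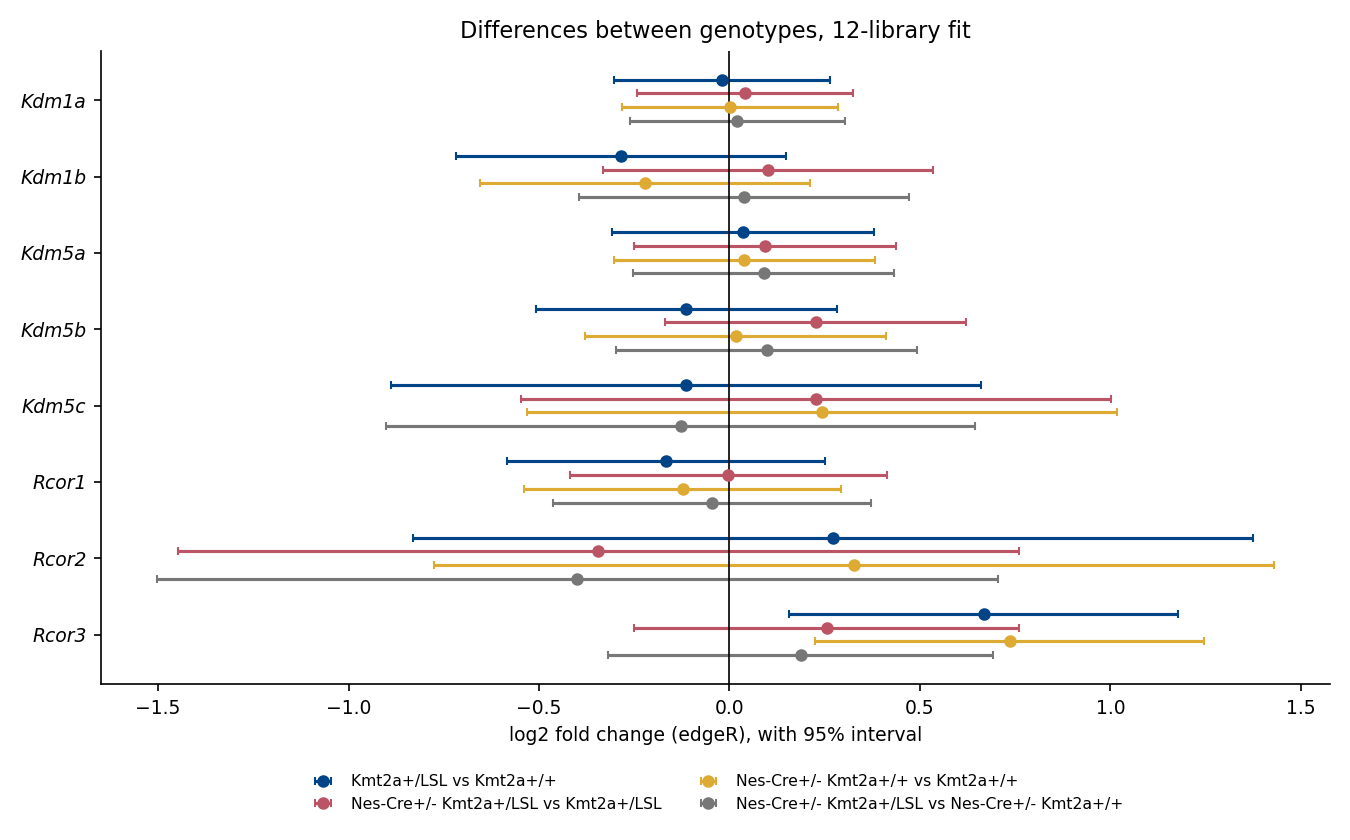
Log2 fold changes of the 8 members in 4 genotype comparisons, from the edgeR fit of 12 libraries, with 95% intervals. Every interval holds 0 except those of Rcor3 in the 2 comparisons with Kmt2a+/+, and the intervals of Rcor2 and Kdm5c are the widest.

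Among the flavin-dependent demethylases, Kdm1a (ENSMUSG00000036940, chr4:136550540-136602723, GRCm38) was the steadiest member. It had 4829, 4501 and 4174 normalized counts in the wild-type Kmt2a+/+ libraries and 4284, 4541 and 4499 in those of Kmt2a+/LSL. Libraries with nestin-Cre held 4402, 4408 and 4703 where Kmt2a was normal and 4550, 4814 and 4339 where the LSL allele was present. All 4 genotypes overlapped, and the highest library was 1.16 times the lowest. Its biological coefficient of variation, edgeR's estimate of the spread between libraries, was 0.154, and 99.9% of the genes tested had a higher one. The LSL comparison gave −0.019 on the log2 scale (SE 0.13, 95% interval −0.30 to 0.26), which bounds the change to between 0.811-fold and 1.20-fold under this fit. The excision comparison gave 0.041 (SE 0.13).

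Kdm1b (ENSMUSG00000038080, chr13:47043499-47085279) encodes LSD2, which does not bind CoREST and works with the cofactor GLYR1. Its libraries held 1285, 851 and 808 normalized counts in the wild-type Kmt2a+/+ libraries and 796, 852 and 766 in those of Kmt2a+/LSL. Under nestin-Cre the values were 865, 790 and 868 without and 976, 844 and 770 with the LSL allele. The 2 libraries highest in Kdm1b were Kmt2a+/+ replicate 1 and Nes-Cre+/- Kmt2a+/LSL replicate 1, and the other 10 lay between 766 and 868. The LSL comparison gave −0.29 (SE 0.20, adjusted p = 1 by edgeR), and without Kmt2a+/+ replicate 1 it was −0.042. The excision comparison gave 0.10 (SE 0.20), and 0.0035 without Nes-Cre+/- Kmt2a+/LSL replicate 1. Kdm1b shares 505 exonic bases with Dek, which lies on the opposite strand, and 8.56% of its 31-base words occur in Dek transcripts. The sources used here do not say that counting used strand, so reads from that overlap cannot be told apart. Glyr1 was level, at 4629 to 5430 normalized counts, with a difference of 0.010 (SE 0.13) in the LSL comparison.

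Kdm5a (ENSMUSG00000030180, chr6:120364124-120444574) and Kdm5b (ENSMUSG00000042207, chr1:134560171-134635285) encode autosomal trimethyl-H3K4 demethylases. Kdm5a had 2897, 2883 and 2198 normalized counts in the wild-type Kmt2a+/+ libraries and 2517, 2857 and 2801 in those of Kmt2a+/LSL. With nestin-Cre the libraries held 2612, 2716 and 2870 on the Kmt2a+/+ and 3265, 2709 and 2748 on the Kmt2a+/LSL background. The lowest library was Kmt2a+/+ replicate 3 and the highest Nes-Cre+/- Kmt2a+/LSL replicate 1. All genotypes overlapped, and the log2 difference was 0.035 (SE 0.16) in the LSL comparison and 0.094 (SE 0.16) in the excision comparison. With a library left out, the first ran from −0.085 (without Kmt2a+/+ replicate 3) to 0.10. The second ran from 0.00217 (without Nes-Cre+/- Kmt2a+/LSL replicate 1) to 0.14. Kdm5b had 3617, 5052 and 3752 in the wild-type Kmt2a+/+ libraries and 3103, 4308 and 4072 in those of Kmt2a+/LSL. Libraries with nestin-Cre held 3904, 4076 and 4580 where Kmt2a was normal and 4185, 4598 and 4654 where the LSL allele was present. The last genotype had the highest mean and still overlapped Kmt2a+/LSL in 1 library. The Kdm5b differences were −0.11 (SE 0.18) in the LSL comparison and 0.23 (SE 0.18, 95% interval −0.17 to 0.62) in the excision comparison. With a library left out, the first ran from −0.23 to 0.055 (without Kmt2a+/+ replicate 2). The second ran from 0.096 (without Kmt2a+/LSL replicate 1) to 0.33. Kdm5a shares 251 exonic bases with Ccdc77 on the opposite strand.

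Kdm5c (ENSMUSG00000025332, chrX:152233020-152274535) split by Y-linked RNA, while none of its genotype differences passed the test. Its normalized counts were 2518, 5165 and 7933 in the wild-type Kmt2a+/+ libraries and 4654, 4747 and 5032 in those of Kmt2a+/LSL. Under nestin-Cre the values were 6956, 6534 and 4987 without and 4013, 5229 and 7660 with the LSL allele. Kmt2a+/LSL was tight, at 4811 ± 197 (SD, n = 3), and Kmt2a+/+ was wide, at 5205 ± 2708. The labels used here do not give the sex of the pups. The Y-linked genes Ddx3y, Eif2s3y and Uty, counted from the male-specific chromosome, were at 0 to 6.55 normalized counts in 4 libraries (Kmt2a+/+ replicate 3, Nes-Cre+/- Kmt2a+/+ replicates 1 and 2, and Nes-Cre+/- Kmt2a+/LSL replicate 3) and at 797 to 2592 in the other 8, which include all 3 of Kmt2a+/LSL. Kdm5c lay between 6534 and 7933 in the 4 libraries without Y-linked counts and between 2518 and 5229 in the 8 with them, so the ranges do not meet, and the lowest of the 8 is 4013 when Kmt2a+/+ replicate 1 is left out. The mean of the first was 1.60 times that of the second, and 1.505 times when Kmt2a+/+ replicate 1 is left out. Of the genes tested, 0.182% (31 of 17076) were likewise higher in all 4 than in all 8. Of 414 X-linked genes with a mean count of at least 50, 2 were, Kdm5c and Gm26992, an X-linked gene named after its values were seen, with 1986 to 2076 normalized counts in the 4 libraries and at most 1.03 in the 8. Without Kmt2a+/+ replicate 1 there were 3, with Eif2s3x, and 42 of all genes tested (0.246%).

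The values within each genotype that has both kinds of library follow from those ranges and add no further test. In Kmt2a+/+, the library without Y-linked counts had 7933 normalized counts of Kdm5c and the others 2518 and 5165. In Nes-Cre+/- Kmt2a+/+ the 2 without had 6534 and 6956 and the other 4987, and in Nes-Cre+/- Kmt2a+/LSL the 1 without had 7660 and the others 4013 and 5229. A term for the presence of Y-linked counts, added to the genotype fit after these values were seen, gave Kdm5c a log2 difference, present minus absent, of −0.74 (SE 0.21) with adjusted p = 0.853 in edgeR's quasi-likelihood test. Kdm5c ranked 29 of 17076 by p, and the test called 5 genes (0.0293% of those tested), Gm26992 and the Y-linked Kdm5d, Uty, Ddx3y and Eif2s3y, of which the last 3 define the split. The same term was between −0.014 and 0.24 for the other 7 members.

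With that term in the fit, the Kdm5c difference in the LSL comparison turned from −0.11 (SE 0.35) to 0.21, and within the 8 libraries with Y-linked counts it was 0.32. Among those 8, Kmt2a+/+ held 2518 (replicate 1) and 5165 normalized counts, against 4654 to 5032 in Kmt2a+/LSL. The positive sign within the 8 thus depends on Kmt2a+/+ replicate 1. With the term, the Kdm5c difference turned from 0.23 (SE 0.35) to −0.061 in the excision comparison and from −0.13 (SE 0.35) to 0.081 in the LSL comparison under Cre. Of the Nes-Cre+/- Kmt2a+/LSL libraries with Y-linked counts, replicate 1 held 4013 and replicate 2 held 5229, above every Kmt2a+/LSL library. The negative excision sign within the 8 libraries thus depends on that replicate 1. In the Cre-only comparison the genotype fit gave 0.24 (SE 0.35), and −0.094 without Kmt2a+/+ replicate 1. None of these passed the test.

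Kdm5d, the Y-linked relative, was far below Kdm5c. Per length it reached 1.52 to 2.99 in the 8 libraries with Y-linked counts, where it was 4.35% to 15.5% of the sum of Kdm5c and Kdm5d (at most 9.35% without Kmt2a+/+ replicate 1), and at most 0.177 in the other 4. The sum of both genes was 19.3 to 35.9 in the 8 libraries and 42.5 to 51.4 in the 4, so the ranges stay apart when the pair is added up. Without the library labelled Kmt2a+/+ replicate 1, the lowest sum among the remaining 7 was 28.7. Kdm5d kept 18.5 to 33.8 normalized counts in libraries where Ddx3y was at 0, and 6.86% of its 31-base words occur in transcripts of other genes, most of all Ccdc82. Kdm5c made up 58.5% to 66.0% of the summed KDM5 levels in the 4 libraries and 34.2% to 52.9% in the 8.

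**Figure D3:**
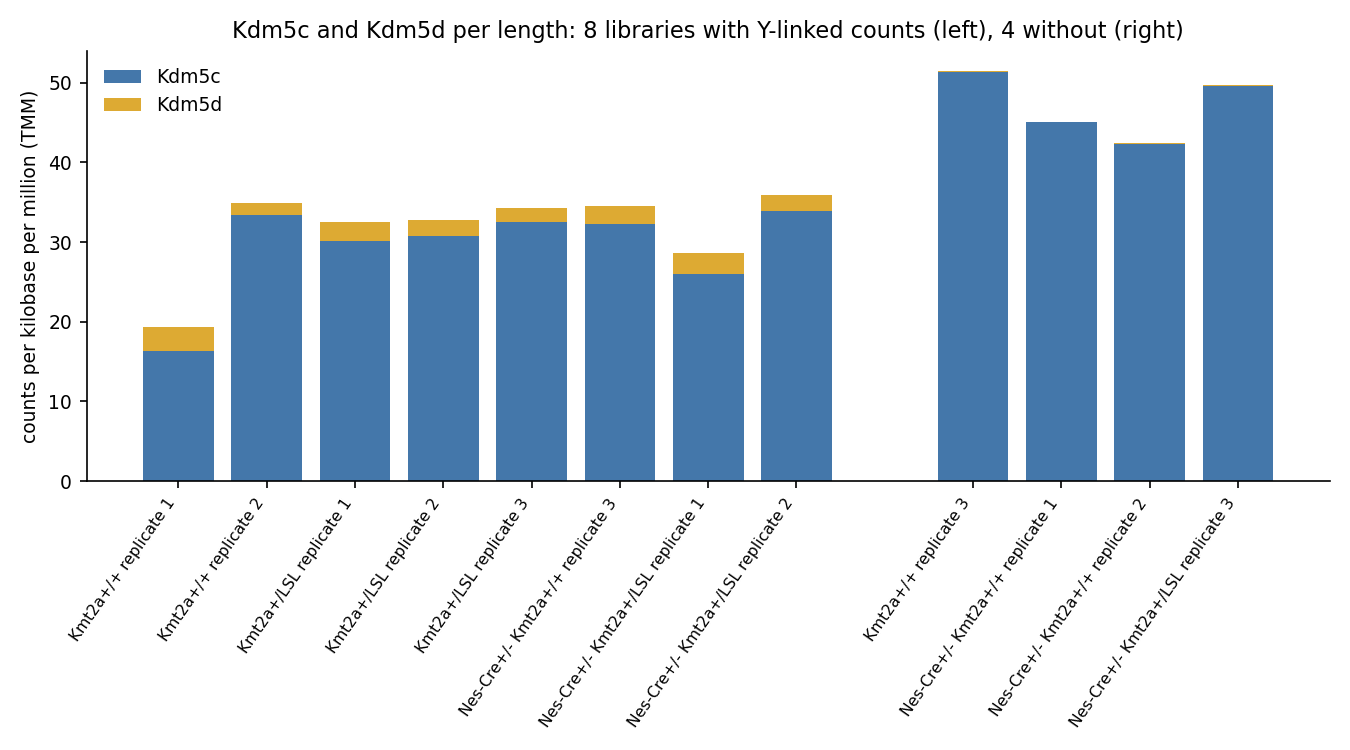
Stacked levels per transcript length of Kdm5c and Kdm5d, in CPM per kilobase, in each library, with the 8 libraries that hold Y-linked counts on the left and the 4 that do not on the right. The stacks on the left reach 19.3 to 35.9 and those on the right 42.5 to 51.4.

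Over all 12 libraries, the X-linked genes listed beside Kdm5c overlapped between the 2 kinds of library. Eif2s3x, a translation factor with a Y-linked partner, averaged 1.42 times as much in the 4 libraries as in the 8, and Kdm6a, an H3K27 demethylase, 1.28 times. Ddx3x (0.969), Utp14a (0.936) and Ogt (0.771) had ratios below 1, and without Kmt2a+/+ replicate 1 that of Ddx3x turned to 1.05. With that library left out, the ratio was 1.515 for Eif2s3x, 1.505 for Kdm5c and 1.31 for Kdm6a. It stayed below 1 for Utp14a (0.977) and Ogt (0.801). The overlap of Eif2s3x came from Kmt2a+/+ replicate 1 alone, at 9198 normalized counts, and the other 7 libraries with Y-linked counts held 5464 to 6698 against 8412 to 9986 in the 4 without. Kdm6a, Ddx3x, Utp14a and Ogt still overlapped when that library was left out. Xist was not used here.

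Rcor1 (ENSMUSG00000037896, chr12:111039351-111115901) encodes the founding CoREST scaffold. It had 1804, 1225 and 1330 normalized counts in the wild-type Kmt2a+/+ libraries and 1354, 1208 and 1319 in those of Kmt2a+/LSL. With nestin-Cre the libraries held 1353, 1331 and 1317 on the Kmt2a+/+ and 1508, 1338 and 1029 on the Kmt2a+/LSL background. The highest library was Kmt2a+/+ replicate 1, and the genotypes overlapped. The LSL comparison gave −0.17 (SE 0.19), and 0.018 without that library, and the excision comparison gave −0.00259 (SE 0.19).

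Rcor2 (ENSMUSG00000024968, chr19:7267325-7275225), the CoREST gene known from stem and neural progenitor cells, had the widest spread of the members over the 12 libraries, with a coefficient of variation (SD over mean) of 33.5%. Without Kmt2a+/+ replicate 1 it was 22.3%, next to 23.1% for Kdm5c and 23.8% for Rcor3. It had 388, 2400 and 2001 normalized counts in the wild-type Kmt2a+/+ libraries and 1622, 2023 and 2141 in those of Kmt2a+/LSL. Libraries with nestin-Cre held 1750, 1894 and 2365 where Kmt2a was normal and 978, 2135 and 1442 where the LSL allele was present. The lowest 2 libraries were Kmt2a+/+ replicate 1 and Nes-Cre+/- Kmt2a+/LSL replicate 1, the same 2 that had the most mitochondrial counts and the lowest levels of GC-rich genes. The Rcor2 transcript is 61.6% GC, above 97.9% of the 11483 genes compared for GC, and its part in the low Rcor2 counts was not tested. The LSL comparison gave 0.27 (SE 0.50), which turned to −0.19 without Kmt2a+/+ replicate 1. The excision comparison gave −0.34 (SE 0.50), and −0.11 without Nes-Cre+/- Kmt2a+/LSL replicate 1. The 95% interval of the first ran from 0.562-fold to 2.59-fold.

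Rcor2 was the main CoREST gene per length in 11 of the 12 libraries. Its share of the summed Rcor1, Rcor2 and Rcor3 levels had a median of 72.3%, with Rcor1 at 24.5% and Rcor3 at 4.09%. In Kmt2a+/+ replicate 1 the order was turned, with Rcor1 at 66.2% and Rcor2 at 28.7%. Nes-Cre+/- Kmt2a+/LSL replicate 1 was between, with Rcor2 at 52.2% and Rcor1 at 40.0%. In the other 10 libraries Rcor2 made up 67.8% to 77.9%.

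**Figure D4:**
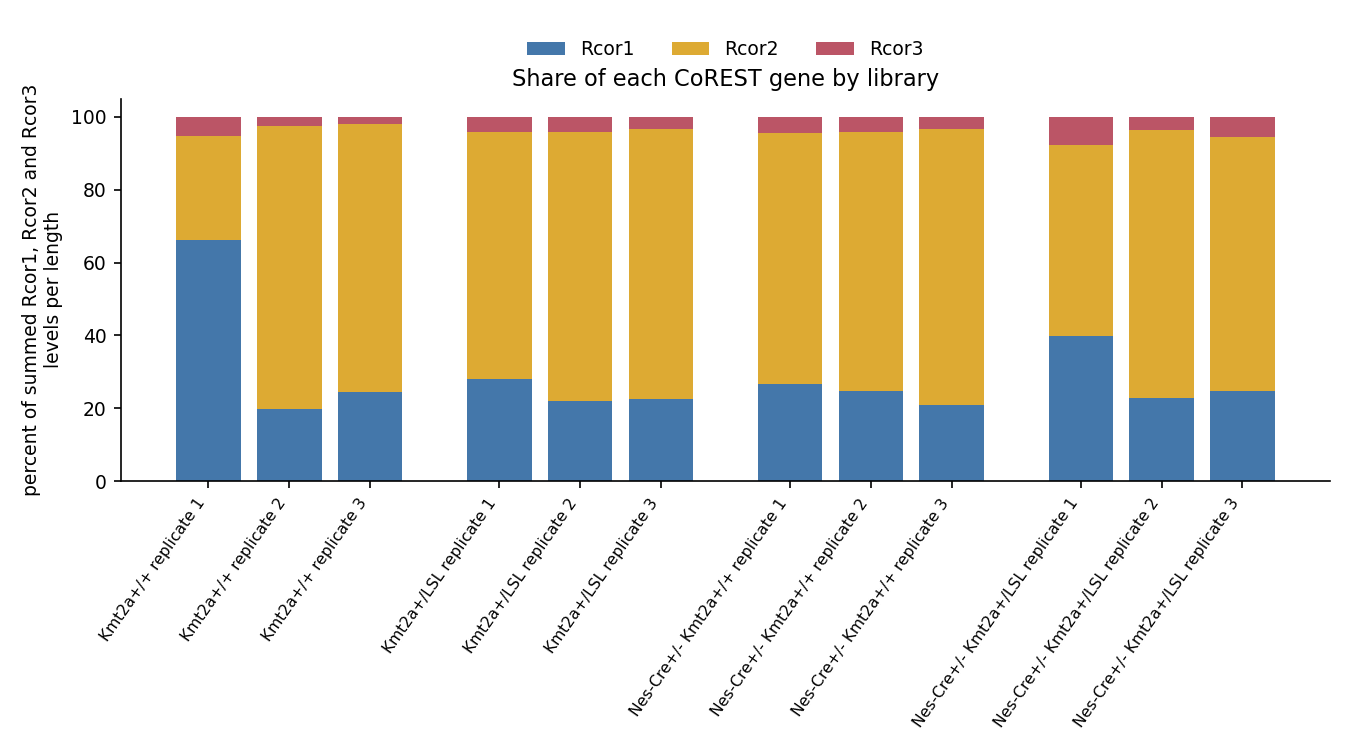
Percent of the summed per-length levels of Rcor1, Rcor2 and Rcor3 that each gene takes, in each of the 12 libraries. Rcor2 takes 67.8% or more in 10 libraries, 52.2% in Nes-Cre+/- Kmt2a+/LSL replicate 1 and 28.7% in Kmt2a+/+ replicate 1.

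Rcor3 (ENSMUSG00000037395, chr1:192098546-192138062), the least abundant member, was the one whose Kmt2a+/+ libraries lay apart from those of the other genotypes. It had 92.6, 97.1 and 69.1 normalized counts in the wild-type Kmt2a+/+ libraries and 131, 151 and 129 in those of Kmt2a+/LSL. Under nestin-Cre the values were 146, 148 and 137 without and 197, 141 and 153 with the LSL allele. All 9 libraries of the 3 other genotypes lay above all 3 of Kmt2a+/+, a pattern shared by 48 of the 17076 genes tested (0.281%). Without Kmt2a+/+ replicate 1 the same pattern was shared by 1090 genes (6.38%), without replicate 2 by 309 (1.81%) and without replicate 3 by 402 (2.35%). With 2 Kmt2a+/+ libraries left instead of 3, more genes meet the pattern by construction. The 3 counts differ at that same group size, with the highest when replicate 1 is left out, and the cause of that difference was not tested. The highest mean was that of Nes-Cre+/- Kmt2a+/LSL, at 164 ± 29.4, against 86.3 ± 15.1 in Kmt2a+/+ (SD, n = 3). RCOR3 is a CoREST paralogue that competes with RCOR1 for KDM1A in some blood lineages.

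The LSL comparison gave Rcor3 a log2 difference of 0.67 (SE 0.23, 95% interval 0.16 to 1.18), with adjusted p = 1 by edgeR and 0.151 to 1 over 25 alternatives. The Cre-only comparison gave 0.74 (SE 0.23, 95% interval 0.22 to 1.25), with adjusted p = 1 by edgeR and 0.416 to 1 over 24 alternatives. Both share the Kmt2a+/+ libraries. Before adjustment Rcor3 was under 0.05 by edgeR in both, as were 1.79% and 1.40% of all genes tested. Without Kmt2a+/+ replicate 1 the shares of all genes were 8.95% and 6.09%. Over the alternatives it stayed under 0.05 before adjustment in 22 of 25 and 23 of 24. In the LSL comparison it did not without Kmt2a+/+ replicate 3 (0.53), without Kmt2a+/LSL replicate 2 (0.57) or within the 8 libraries with Y-linked counts (0.53). In the Cre-only comparison it did not within those 8 libraries (0.53), where Nes-Cre+/- Kmt2a+/+ has 1 library, assumed in the fit to vary like the other groups. The excision comparison gave 0.25 (SE 0.23), and 0.10 without Nes-Cre+/- Kmt2a+/LSL replicate 1, the LSL comparison under Cre 0.19 (SE 0.23) and the interaction −0.48 (SE 0.33). Rcor3 passed the test in none of these.

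The counts behind Rcor3 are small, from 65 to 165 estimated counts per library. Its exons overlap 3 genes on the opposite strand, Gm26879 by 667 bases, Gm10516 by 336 and Gm37055 by 133, which were not analysed here. Of its 31-base words, 8.18% occur in transcripts of other genes. Reads from the overlapping stretches cannot be told apart from its own without strand. Rcor3 was lowest in Kmt2a+/+ replicate 3, not in replicate 1, and without replicate 1 the LSL comparison gave 0.72. In exact two-sided permutation tests of 3 libraries against 3, Rcor3 reached p = 0.1 in both comparisons with Kmt2a+/+, which is the smallest p this design allows. Groups that do not overlap give that p by construction, so it only restates the separation. Rcor3 was the 1 member of 8 whose libraries did not overlap in the LSL comparison, beside 4.05% of all genes tested, and in the Cre-only comparison, beside 4.35%. It was 0 of 8 in the excision comparison, beside 7.1%, and 0 of 8 in the LSL comparison under Cre, beside 6.68%.

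**Figure D5:**
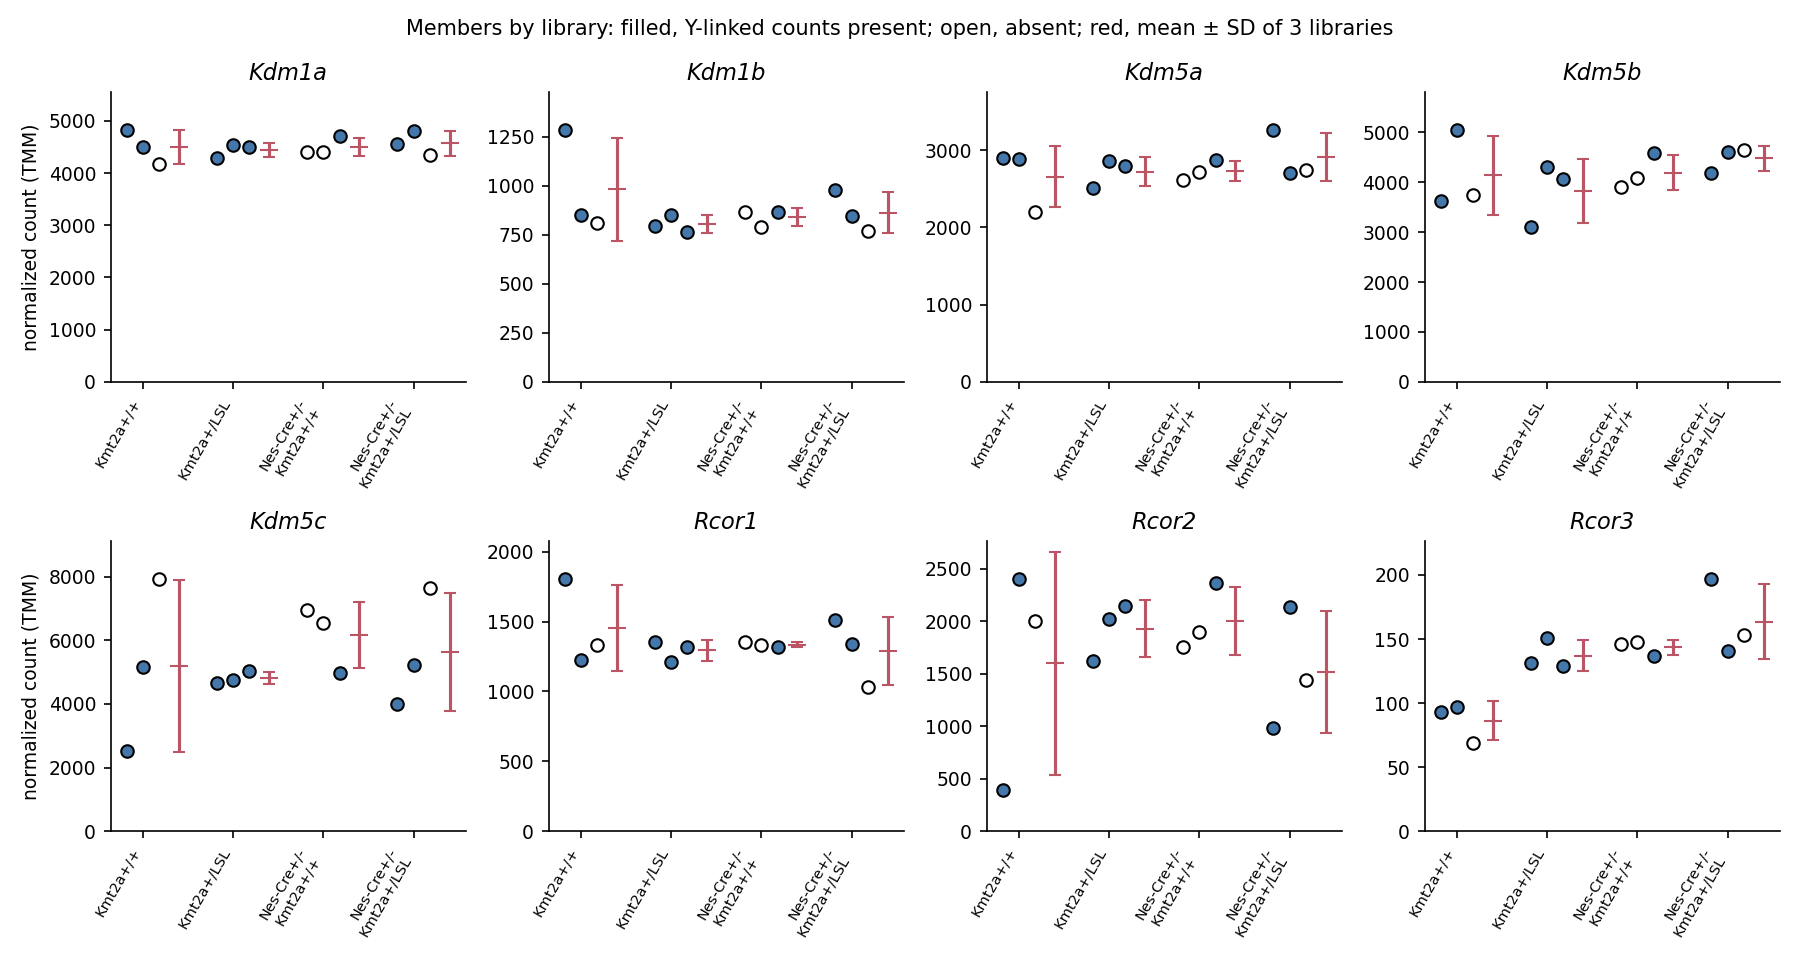
Normalized counts (TMM) of the 8 members in each of the 12 libraries, by genotype, with filled points for libraries with Y-linked counts, open points for those without, and the mean ± SD of 3 libraries in red. Open points are the highest for Kdm5c in each genotype that has them, and the Kmt2a+/+ points of Rcor3 lie below all others.

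The median log2 difference over the 8 members was −0.066 in the LSL comparison, with 3 positive and 5 negative, beside a median of 0.00111 over all genes. It was −0.012 without Kmt2a+/+ replicate 1, with 4 positive and 4 negative, and leaving out each library in turn moved it from −0.088 (without Kmt2a+/LSL replicate 2) to 0.018 (without Kmt2a+/+ replicate 2), so its sign depended on single libraries. The members' median was 0.097 in the excision comparison, with 6 positive and 2 negative, beside 0.00173, and ran from 0.023 (without Nes-Cre+/- Kmt2a+/LSL replicate 1) to 0.14 (without Kmt2a+/LSL replicate 2) with a library left out. These 2 comparisons share the Kmt2a+/LSL libraries. For the members, the medians were 0.028 in the Cre-only comparison (0.0143 over all genes) and 0.029 in the LSL comparison under Cre (0.00488). With a library left out, the first ran from −0.050 (without Kmt2a+/+ replicate 3) to 0.14 (without Kmt2a+/+ replicate 2) and the second from −0.000187 (without Nes-Cre+/- Kmt2a+/+ replicate 2) to 0.081 (without Nes-Cre+/- Kmt2a+/LSL replicate 3).

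None of the partners of the complexes was called either. Of 26 listed partners of the CoREST and KDM5 complexes, 25 were tested, and edgeR called 0 in each direction in all 5 comparisons. At an unadjusted p under 0.05 there were 0, beside 1.11% to 1.79% of all genes. DESeq2's Wald test, DESeq2 with the empirical null and limma-voom also called 0 of them. Their median difference was −0.00233 in the LSL comparison (from −0.46 to 1.42) and 0.016 in the excision comparison (from −0.17 to 0.62). Neither median held its sign with a library left out: the first was −0.075 without Kmt2a+/+ replicate 1 and ran from −0.091 (without Kmt2a+/LSL replicate 3) to 0.097 (without Kmt2a+/+ replicate 3), and the second ran from −0.051 (without Nes-Cre+/- Kmt2a+/LSL replicate 2) to 0.022 (without Nes-Cre+/- Kmt2a+/LSL replicate 1). Rest, the repressor that recruits CoREST to neuronal genes, had 1044 to 1321 normalized counts over the 12 libraries, and the LSL comparison gave 0.18 (SE 0.14). Its Kmt2a+/+ libraries (1072, 1119 and 1044) lay below all 9 others (1150 or more), and it was the 1 of the 25 tested partners with that pattern. The pattern, also seen for Rcor3, was met by 0.281% of all genes tested, and by 6.38% without Kmt2a+/+ replicate 1. A link between Rest and Rcor3 was not tested. Hdac1, a deacetylase of the complex, had 2332 to 3251 normalized counts and a difference of 0.12 (SE 0.15). Hdac2, the other, had 7939 in Kmt2a+/+ replicate 1 and 3085 to 4187 in the other 11 libraries, with a difference of −0.28 (SE 0.30) that turned to 0.30 without that library. Phf21a, which reads unmethylated H3K4, differed by −0.070 (SE 0.15) in the LSL comparison, and by −0.17 without Kmt2a+/+ replicate 1. Hmg20b, a DNA-binding subunit, differed by 0.10 (SE 0.29), which turned to −0.21 without that library. Nr2e1, a nuclear receptor of neural stem cells that binds KDM1A, differed by −0.31 (SE 0.18), and by −0.43 without it. Leaving out that library turned the sign of the LSL difference in 11 of the 25 partners, Glyr1 among them (−0.023), put 5 under 0.05 before adjustment, beside 8.95% of all genes in the same fit, and left 0 called by edgeR. Kmt2a+/+ replicate 1 held the lowest or highest normalized count for 18 of the 25 partners, beside the 64.1% over all genes given above.

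Of 16 neuronal genes known as targets of REST and CoREST, all were tested and edgeR called 0 in each direction in all 5 comparisons. At an unadjusted p under 0.05 there were 2 in the LSL comparison under Cre and 1 in the interaction, beside 1.11% and 1.73% of all genes. Their median was 0.048 in the LSL comparison and −0.26 in the excision comparison, with 7 and 13 of the 16 negative, beside 49.8% and 49.5% of all genes. The LSL median was 0.23 without Kmt2a+/+ replicate 1, where the sign turned in 7 of the 16, and 2 (Scn2a and Chrnb2) were under 0.05 before adjustment, beside the same 8.95%, with 0 called by edgeR. With a library left out, the LSL median ran from −0.054 (without Kmt2a+/+ replicate 3) to that 0.23, and the excision median from −0.34 (without Nes-Cre+/- Kmt2a+/LSL replicate 3) to −0.13 (without Nes-Cre+/- Kmt2a+/LSL replicate 1). The median was −0.10 in the Cre-only comparison and −0.063 in the LSL comparison under Cre, with 12 and 11 of the 16 negative, beside 47.9% and 48.9%. The Cre-only median turned to 0.11 without Kmt2a+/+ replicate 1, with 6 negative, and was −0.22 without Kmt2a+/+ replicate 3, and the other ran from −0.17 (without Nes-Cre+/- Kmt2a+/LSL replicate 3) to −0.020 (without Nes-Cre+/- Kmt2a+/LSL replicate 1). Celsr3, a cadherin of axon guidance, differed by −1.25 (SE 0.38, adjusted p = 1 by edgeR) in the LSL comparison under Cre and by −1.34 (SE 0.53, adjusted p = 1.00 by edgeR) in the interaction. Nefl, a neurofilament gene, differed by 0.91 (SE 0.40, adjusted p = 1 by edgeR) in the LSL comparison under Cre. DESeq2's Wald test and limma-voom called 0 of the 16 in every comparison. Without Kmt2a+/+ replicate 1 DESeq2's Wald test called 1, Celsr3 in the LSL comparison under Cre (−1.23, adjusted p = 0.0399), 1 of the 5 genes it then called in all. DESeq2 with the empirical null, which called 935 and 241 of all genes in the excision comparison and the LSL comparison under Cre, called 3 (Celsr3, L1cam and Stmn2) in the first and 2 (Celsr3 and Nefl) in the second. Stmn2, a growth cone gene, was at 0 to 7.18 normalized counts, and Tubb3, a neuronal tubulin, at 72.7 to 675.

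The genes most like each member in their log2 CPM over the 12 libraries, among 11677 with a mean count of at least 50, are given as a description, since all share the same libraries and their depth. Pearson's r was 0.927 for Kdm1a with Washc2 and 0.890 with Ccng2. Kdm1b was most like Wac (0.976) and Gtf2b (0.973), Kdm5a most like Bnip3l (0.929) and Reep3 (0.923), and Kdm5b most like BC067074 (0.950) and Tmem132b (0.925). Kdm5c was most like Grcc10 (0.953) and Pdcd11 (0.945), and without Kmt2a+/+ replicate 1 these were 0.896 and 0.879. Rcor1 was most like Fnbp4 (0.959) and Rpl31-ps8 (0.957), and Rcor3 most like Nek7 (0.937) and Kdsr (0.919). Nek7 and Kdsr lie on chromosome 1, as Rcor3 does, and no other member shared its chromosome with its most-like genes. A cause for this was not tested. Rcor2 had the closest likeness, to Bcl9 (0.993) and Cdk5 (0.989), and without Kmt2a+/+ replicate 1 these were 0.970 and 0.956. For the others the values without that library lay between 0.864 (Kdm1a with Ccng2) and 0.948 (Kdm5b with BC067074).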

How the data were processed

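RNA was measured in 12 mNPC libraries, 3 for each of 4 genotypes, grouped by the genotype in the labels. The authors pseudoaligned reads with kallisto 0.48.0 and summed transcripts to genes, and the deposited table holds estimated counts for 18911 genes, which were rounded to whole numbers here. Of the identifiers, 18718 matched a GRCm38 symbol. The depth of 18280008 to 28596919 counts per library limits weakly expressed genes such as Rcor3.

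The 17076 genes whose counts summed to over 10 and were above 0 in 2 or more libraries were fitted with genotype as the only term over all 12 libraries in edgeR 4.0.16 (TMM, quasi-likelihood F-test, Benjamini-Hochberg adjustment over all genes, threshold 0.05) under R 4.3.3. DESeq2 1.42.0, limma 3.58.1 (voom), other filters and scalings, a replicate block, a Y-linked covariate and leaving out each library were alternatives. The empirical null rescaled DESeq2 z-scores by the spread of their central 75%. Terms for the presence of Y-linked counts, a fit of the 8 libraries that hold them and DESeq2, the list values, spreads and counts of split genes without Kmt2a+/+ replicate 1, and list medians without each library, were added after seeing the data. The fits were tested on simulated data.

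The members and lists were chosen with earlier results of these data known. The text names all members, Kmt2a, Kdm5d with listed sex-linked genes, and partners and neuronal targets from 2 lists. Of the targets it names those under 0.05 before adjustment, and L1cam, Stmn2 and Tubb3 were chosen after their values were seen. Likeness is Pearson's r of log2 CPM with a prior count of 2. Levels per length used GENCODE transcripts of GRCm38. Xist, and listed markers without a row, were not used here.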

Additional observations from a re-analysis of the deposited data

How the results depend on the processing

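No member was called under any alternative run. Signs were followed for 21 log2 differences: all members in the LSL and excision comparisons, Rcor3 in every comparison, and Kdm5c in the Cre-only comparison and the LSL comparison under Cre. Differences outside these 21 also turned: in the Cre-only comparison the alternatives ran from −0.34 to 0.016 for Kdm1b, −0.23 to 0.066 for Rcor1 and −0.15 to 0.76 for Rcor2. The 21 kept their sign in 475 of 520 recomputations. The other 45 concern 10 small differences, none of which passed the test, and beyond the construction of each alternative the cause was not tested. In the LSL comparison, Kdm1a (−0.019) was 0.012 with limma-voom and 0.027 with DESeq2 on the 11 libraries without Kmt2a+/+ replicate 1. Kdm5a (0.035) was −0.00555 with DESeq2 size factors, −0.00498 with the DESeq2 Wald test and with the empirical null, −0.024 with the log2 Y-linked CPM as covariate, −0.025 with the presence of Y-linked counts as covariate and −0.088 in the 8 libraries with Y-linked counts. Kdm5c (−0.11) was 0.23, 0.21 and 0.32 under the same 3 Y-linked settings. Among libraries with Y-linked counts, Kmt2a+/+ replicate 1 (2518 normalized counts of Kdm5c) lay below Kmt2a+/LSL (4654 to 5032) and Kmt2a+/+ replicate 2 (5165) above it. Rcor1 (−0.17) was 0.026 with limma-voom and 0.012 with DESeq2 on 11 libraries, and Rcor2 (0.27) was −0.18 and −0.20. In the excision comparison, Kdm5c (0.23) was −0.050, −0.061 and −0.058 under the 3 Y-linked settings, where Nes-Cre+/- Kmt2a+/LSL replicate 1 held 4013 and replicate 2 held 5229. Rcor1 (−0.00259) was 0.012 with DESeq2 size factors, 0.012 with the Wald test and the empirical null, 0.00798 with at least 10 counts in every library, 0.00118 in 9 libraries of 3 genotypes, 0.00961 with DESeq2 on 11 libraries, and 0.052, 0.056 and 0.14 under the Y-linked settings. Kdm5c was −0.097 (from 0.24) in the Cre-only comparison with DESeq2 on 11 libraries, and 0.089 and 0.081 (from −0.13) in the LSL comparison under Cre with the 2 Y-linked covariates.

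Leaving out each library in turn moved the LSL comparison of Kdm1a from −0.071 to 0.035, Kdm5a from −0.085 to 0.10, Kdm5b from −0.23 to 0.055, Kdm5c from −0.45 (without Kmt2a+/+ replicate 1) to 0.32 (without Kmt2a+/+ replicate 3), Rcor1 from −0.28 to 0.018 and Rcor2 from −0.19 (without Kmt2a+/+ replicate 1) to 0.69 (without Kmt2a+/+ replicate 2). In the excision comparison Kdm5c ran from −0.058 to 0.42 and Rcor1 from −0.13 to 0.14. Kdm5c ran from −0.094 to 0.68 in the Cre-only comparison and from −0.41 to 0.065 in the LSL comparison under Cre. Scaled by library totals, 2 members (Rcor3 and Kdm1a) did not overlap in the Cre-only comparison. The share of all genes under that scaling is not given here, so this count has no background beside it. Over the union of exons the levels per length were 36.3 for Kdm1a, 8.13 for Kdm5a, 10.5 for Kdm5b and 0.406 for Rcor3.

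Replicate numbers were not taken as pairs, since not every same-numbered pair correlated by over 0.1. Deviations of same-numbered libraries correlated by −0.072 to 0.42 (mean 0.084, 18 pairs), against a mean of −0.041 for 36 others, and 8 of 12 libraries correlated best with their own number. All 3 pairs of Kmt2a+/+ with Nes-Cre+/- Kmt2a+/LSL were over 0.1 (0.42, 0.29 and 0.14), so some sharing by number remains possible. With the replicate block edgeR called 0 genes in each comparison, with 246, 264, 220, 179 and 278 at an unadjusted p under 0.05, and the LSL comparison gave 0.68 for Rcor3, −0.023 for Kdm5c and 0.49 for Rcor2. With 3 libraries a genotype, intervals as wide as those of Rcor2 and Kdm5c leave changes of that size undetectable.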
